A study of Homo sapiens with 9 samples.

Results

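The zinc finger genes of human chromosome 19 were described in 16D cells, an established line of castration-resistant prostate cancer. The members were the protein-coding genes of chromosome 19 whose symbol starts with ZNF and a digit, and the rule used no measured value. It found 250 of the 36650 genes in the expression table, which is 18.95% of the 1319 protein-coding genes of this chromosome and 49.02% of the 510 genes named this way in the genome. All 9 libraries came from cells in which CRISPR had knocked out OGDHL, a subunit gene related to the mitochondrial 2-oxoglutarate dehydrogenase. All cells had been adapted to enzalutamide, an androgen receptor inhibitor, for 6 weeks and were kept in 10 µM of it. The eGFP group (3 libraries) re-expressed only the fluorescent protein eGFP. The FL group (3 libraries) carried a full-length OGDHL that the knockout guide cannot cut. The dMTS group (3 libraries) carried an equally resistant OGDHL that lacks its mitochondrial targeting sequence. No label says that the 3 libraries of a group came from separate cultures, so p-values measure the spread between these libraries, which may be technical.

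Most genes of this family encode C2H2 zinc finger proteins, in which each finger holds a zinc ion between a pair of cysteines and a pair of histidines and the row of fingers reads DNA. Many also carry a KRAB domain, which recruits the corepressor TRIM28 and through it the histone methyltransferase SETDB1 and heterochromatin proteins. KRAB zinc finger proteins are best known for silencing transposable elements, and the genes stand in tandem clusters on chromosome 19 that grew by duplication.

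The libraries held between 86.3 M and 121 M estimated reads, and the members took 0.338% to 0.380% of them. OGDHL, the targeted gene, stood at 1.19 ± 0.0715 TPM in eGFP (SD, n = 3), 218 ± 52.8 in FL and 125 ± 49.5 in dMTS libraries, as the labels say. All 8 luminal prostate markers were at 1 TPM or more in every library, and no marker of basal epithelium, neuroendocrine cells or leukocytes reached that level in all. Among the 3 stromal markers 1 did. Only 2 of the 3 markers listed for each of basal epithelium, neuroendocrine cells and leukocytes were in the expression table. The summed stromal level was 3.05 to 3.13 TPM in eGFP, 2.89 to 2.94 in FL and 2.22 to 2.62 in dMTS, without overlap between the groups. The summed level of the neuroendocrine markers was 0.632 to 0.739 TPM in eGFP, 0.518 to 0.580 in FL and 0.537 to 0.616 in dMTS, so it too was higher in all eGFP libraries. The part of either in the comparisons with eGFP was not tested. One dMTS library, replicate 2, stood apart from the rest in overall scale: its median log2 ratio to the gene means over the 22802 genes tested was 0.26, and that of the other 8 libraries lay between -0.12 and 0.07. Each comparison is therefore given on the deposited TPM (transcript levels divided by gene length and scaled to the same total in every library) and on TPM rescaled so that this median is 0 in each library. Mitochondrial genes held 54.95% of the deposited TPM in dMTS replicate 2 and 62.08% to 65.96% in the other 8 libraries. The part of this share in the difference of scale was not tested.

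Because the deposited TPM were divided by the whole genomic span of a gene, introns included, members with long introns have low values that do not compare between genes. Estimated reads were divided by the length of a gene's exons and by the library's depth, in the unit RPKM, wherever 1 gene is set against another (exon RPKM). On that scale the median member stood at 2.13, with quartiles at 1.12 and 3.39. ZNF146, which encodes a protein made almost only of fingers, was the highest at 38.4. It was followed by ZNF358 at 12.6, ZNF121 at 11.8, ZNF480 at 10.3 and ZNF552 at 8.69. The deposited TPM of the members had a median of 1.61 and reached 21.6, again in ZNF146. The family was therefore widely transcribed at a low level: 230 of 250 members had more than 100 estimated reads per library on average, 138 had more than 1000, and 11 had fewer than 10. No member was at 0 in every library. A TPM of 0.1 in at least 3 libraries, the level required for a test, was reached by 230 members.

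ZNF146 was measured at 22.96, 20.43 and 17.57 TPM in the eGFP libraries, 21.66, 20.46 and 23.43 in FL and 19.8, 26.6 and 21.57 in dMTS. The 3 groups overlapped, with dMTS replicate 2 the highest library and eGFP replicate 3 the lowest. After rescaling the 9 values ran from 19.08 to 22.72.

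The predicted proteins were read from the GENCODE coding sequences of 248 members. They held a median of 12 fingers matching the pattern C-2-C-12-H-3 to 5-H or C, where the numbers count residues between the metal-binding ones. The quartiles were 9 and 15 fingers. ZNF208 had the most, with 36 fingers, and ZNF729 had 34, ZNF91 had 32 and ZNF850 had 29. A KRAB A-box pattern was found in 202 of the 248 proteins. The 202 members with the match had a median of 13 fingers, a span of 26.7 kb and a level of 2.03 exon RPKM. The 46 without it had 10 fingers, 15.6 kb and 2.58 exon RPKM.

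Members were grouped into clusters where neighbouring starts lay no more than 1 Mb apart, with at least 3 members, which gave 10 clusters and 8 members outside them. On GRCh38 the clusters ran from cluster 1, at 2.82 to 2.94 Mb with 5 members, to cluster 10, at 55.48 to 58.48 Mb with 59. Cluster 4, at 19.67 to 24.13 Mb near the centromere, held 38 members. Cluster 9, at 51.57 to 53.58 Mb, held 40. A limit of 0.5 Mb gave 11 clusters and a limit of 2 Mb gave 6.

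The clusters differed in how many of their members reached the level tested. That level is set on the deposited TPM, so it asks for more reads in a gene of longer span. Clusters 5, 6, 7, 8 and 10 had every member above the level tested, including all 59 of cluster 10. Cluster 4 had 11 of its 38 members (28.9%) under it, out of 20 members not tested in all. ZNF208, the member with the most fingers, was one of these 11, at 0.0489 exon RPKM. The median span was 37.5 kb in cluster 4, 41.0 kb in cluster 6 and 13.5 kb in cluster 10. The part of span in the number not tested was itself not tested. Median estimated reads per member were 920 in cluster 4, 807 in cluster 3, 635 in cluster 8 and 594 in cluster 1. The median exon RPKM was 1.20 in cluster 1, 1.33 in cluster 8, 1.405 in cluster 4 and 1.60 in cluster 6. It was 2.22 in cluster 7 and 2.29 in cluster 3. The highest were 2.81 in cluster 9, 2.51 in cluster 2, 2.43 in cluster 5 and 2.41 in cluster 10. By exon RPKM the highest member was ZNF57 in cluster 1, ZNF358 in cluster 2, ZNF791 in cluster 3, ZNF714 in cluster 4, ZNF302 in cluster 5, ZNF146 in cluster 6, ZNF780A in cluster 7, ZNF428 in cluster 8, ZNF480 in cluster 9 and ZNF552 in cluster 10.

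**Figure D1:**
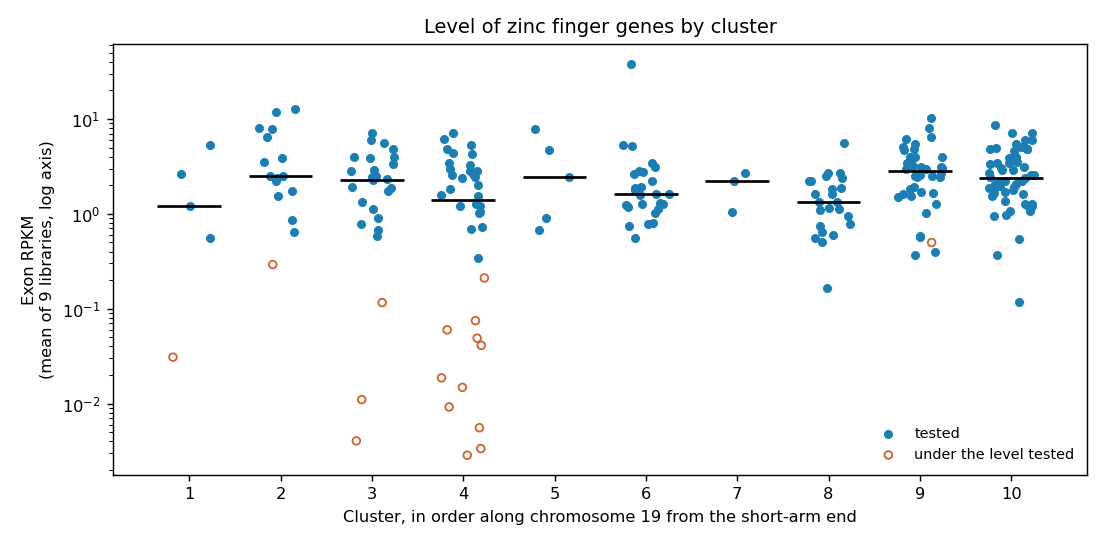
Level of each clustered member (y axis, log scale, exon RPKM, mean of 9 libraries) by cluster in order along the chromosome (x axis). Filled points were tested, open points fell under the level tested, and bars are cluster medians. ZNF146 in cluster 6 stands alone at 38.4, and 11 of the 20 untested members are in cluster 4.

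The promoters of the clusters differed in sequence. RefSeq promoter windows (GRCh38.p14, 250 bases before to 50 after the start) were found for 218 members, 54 of them in cluster 10. The 8-base ETS core CCGGAAGT, searched on both strands, was present in 20.6% of the members' windows, against 6.91% of the 13986 windows of all protein-coding genes, 14.0% of ZNF genes elsewhere and 5.0% of the other genes of chromosome 19. In cluster 10 it was present in 26 of 54 windows (48.1%), and in cluster 4 in 0 of 29. The 26 windows of cluster 10 held 29 cores, of which 26 lay on the strand opposite to the gene. The core's first base had a median position of -19 from the start, against -37 over the windows of all protein-coding genes. Within 60 bases of the start lay 22 of the 29 cores, against 702 of 1075 over all protein-coding genes. The strand was not tallied over all genes. All cores of cluster 8 also lay on the opposite strand, and all those of cluster 9 on the same strand as the gene. For 8 of these genes, picked for display by their deposited TPM, the core nearest the gene body is shown in capitals with 20 bases on each side, 5′ to 3′ on the gene's strand, because its position recurs in most of them.
ZNF134, chr19:57614204-57614251, + strand: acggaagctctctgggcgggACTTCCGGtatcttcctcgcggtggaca
ZNF587, chr19:57849824-57849871, + strand: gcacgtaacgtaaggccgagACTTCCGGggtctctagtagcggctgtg
ZNF776, chr19:57746776-57746823, + strand: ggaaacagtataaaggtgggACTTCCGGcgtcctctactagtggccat
ZNF419, chr19:57487712-57487759, + strand: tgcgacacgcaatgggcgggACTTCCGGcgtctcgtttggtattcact
ZNF256, chr19:57947829-57947876, - strand: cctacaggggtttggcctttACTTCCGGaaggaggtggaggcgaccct
ZNF132, chr19:58440141-58440188, - strand: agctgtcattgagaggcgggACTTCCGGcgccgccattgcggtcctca
ZNF324B, chr19:58451584-58451631, + strand: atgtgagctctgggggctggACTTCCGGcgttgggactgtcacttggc
ZNF587B, chr19:57830248-57830295, + strand: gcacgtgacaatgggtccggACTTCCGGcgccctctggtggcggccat
All 8 hold the core on the opposite strand, so it reads ACTTCCGG here. Counted from the start site, it begins at positions -31 to -15 in 7 of them and at -150 in ZNF256. These genes arose by duplication and share sequence, so the windows are not independent of each other. A match describes letters in the window and does not show that a factor binds.

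The windows of cluster 4 were also poorer in CG. Its 29 windows had a median of 10 CG dinucleotides, against 20 over all members and 24 over all protein-coding genes. Their median GC content was 56.0%, against 59.8% and 63.7%. Cluster 8 was lower in GC content, at 55.3%, with a median of 19 CG dinucleotides. The TATAAA sequence was in 3 of the 29 windows of cluster 4 and in 4 of the 218 windows of members. The latter is 1.83%, against 8.01% of all protein-coding genes.

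The first comparison asked whether restoring full-length OGDHL moved the family. No member passed the test in FL against eGFP (limma on log2(TPM + 0.1), Benjamini-Hochberg adjusted p under 0.05, 230 members tested), as deposited or rescaled. The background was 0.00439% of all 22802 genes tested as deposited and 0.0132% rescaled. At an unadjusted p under 0.05 there were 0 members as deposited, against 3.09% of all genes, and 7 rescaled (6 higher and 1 lower), against 8.34%. limma-voom on the estimated reads, scaled to each library's total of these reads, also called 0, against 0.0249% of all genes. Rescaled, limma-voom called 0, against 0.0208%. The log2 fold changes of the members were small, on a median standard error of 0.14: 223 of 230 lay within 0.2 of 0. That is 97.0%, against 78.6% of all genes, which include non-coding genes. The share over protein-coding genes was not counted. As deposited, the median within-group SD of log2(TPM + 0.1) was 0.162 in members, 0.141 over protein-coding genes and 0.182 over all genes. The members' median log2 fold change was 0.05, with 156 of 230 (67.8%) above 0, against 0.01 and 52.4% over all genes. Rescaled it was 0.04, with 151 (65.7%) above 0, against 0.00 and 50.3%. As deposited, the median was -0.03 without eGFP replicate 3, -0.01 without FL replicate 3, 0.09 without FL replicate 2 and 0.12 without eGFP replicate 1.

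The median differed with the protein architecture. The 186 tested members with a KRAB match had a median of 0.05, with 136 above 0. The 44 other tested members, which are 43 without the match and the readthrough ZNF625-ZNF20 with no coding sequence read, had a median of -0.01, with 20 above 0. As deposited the KRAB median was -0.01, with 83 of 186 above 0, without FL replicate 3, and -0.03, with 64, without eGFP replicate 3. It was 0.12, with 167, without eGFP replicate 1 and 0.10, with 149, without FL replicate 2. The other members' median was -0.02, -0.05, 0.05 and 0.01 in these 4 settings. As deposited, 3 members had FL values all above the eGFP values (ZNF526, ZNF576 and ZNF726), against 3.18% of all genes. A further 7 had FL values all below them (ZNF358, ZNF428, ZNF444, ZNF524, ZNF574, ZNF575 and ZNF784), against 7.74%. Without overlap in either direction were 4.35% of the tested members and 10.9% of all genes. None of the 7 has a KRAB match, but this did not hold after rescaling, where 7 of the 10 members entirely below eGFP have one. After rescaling 21 members were above, against 7.03% of all genes, and 10 below, against 8.77%, or 13.5% of members and 15.8% of all genes in either direction. As deposited, the other protein-coding genes of chromosome 19 had a median of -0.05, with 24.3% above 0. ZNF genes of other chromosomes had a median of 0.02, with 62.5% above 0. The difference between members with and without the match was not tested. Rescaled, the medians were 0.05 and -0.01, and they came to 0.01 and 0.00 without FL replicate 3 and to 0.01 and -0.01 without eGFP replicate 3.

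ZNF726, a KRAB gene of cluster 4, was measured at 1.229, 1.243 and 1.003 TPM in eGFP and at 1.265, 1.315 and 1.381 in FL. Every FL value lay above every eGFP value, with the nearest pair close together. The log2 fold change was 0.18 ± 0.12 (SE) as deposited, with an adjusted p of 1 by limma. In the dMTS libraries it was at 1.216, 1.461 and 1.205, which overlap eGFP. ZNF784, a gene of cluster 10 without a KRAB match, was measured at 3.72, 3.953 and 3.557 TPM in eGFP, 3.379, 3.467 and 3.482 in FL and 3.052, 3.447 and 3.343 in dMTS. Its eGFP libraries lay above all 6 others. The log2 fold change was -0.12 ± 0.08 in FL and -0.19 ± 0.08 in dMTS, with limma adjusted p of 1 and 0.488. ZNF428, also without a KRAB match, stood at 2.751, 2.651 and 2.674 TPM in eGFP and 2.438, 2.514 and 2.348 in FL. Its dMTS values of 2.554, 3.015 and 2.629 overlapped eGFP and lay above FL.

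Cluster 4 had the highest median of the 10 clusters in both comparisons with eGFP. In FL it was 0.11, with 25 of 27 tested members above 0, and rescaled 0.10, with 24. Cluster 6 followed rescaled at 0.08, with 23 of 26, and cluster 3 stood at 0.00, with 11 of 23. Cluster 1 was the lowest at -0.03, with 0 of 4 above 0 under both scalings. The rescaled cluster 4 median, as a log2 ratio to the gene means, was 0.01, -0.04 and -0.13 in the eGFP libraries, 0.03, -0.03 and 0.15 in FL and -0.01, 0.09 and -0.03 in dMTS. The groups overlapped, with eGFP replicate 3 the lowest and FL replicate 3 the highest. As deposited, the cluster 4 median in FL was 0.04, with 19 of 27 above 0, without FL replicate 3, and 0.03, with 19, without eGFP replicate 3. It was 0.18, with 26, without eGFP replicate 1. Without FL replicate 3 the rescaled median in FL was 0.06, with 24 of 27 above 0, and without eGFP replicate 3 it was 0.07, with 23. In dMTS against eGFP the cluster 4 median was 0.15, with 23 of 27 above 0, and rescaled 0.09, with 23. As deposited it was 0.01, with 16, without dMTS replicate 2 and 0.06, with 20, without eGFP replicate 3. Rescaled it was 0.05, with 20, without either of these. Clusters 4 and 6 also had the longest spans, with medians of 37.5 and 41.0 kb, and the part of span in this pattern was not tested. ZNF714, the highest of cluster 4, had log2 fold changes of 0.17 ± 0.07 in FL and 0.16 ± 0.07 in dMTS rescaled, with limma adjusted p of 0.585 and 0.227.

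**Figure D2:**
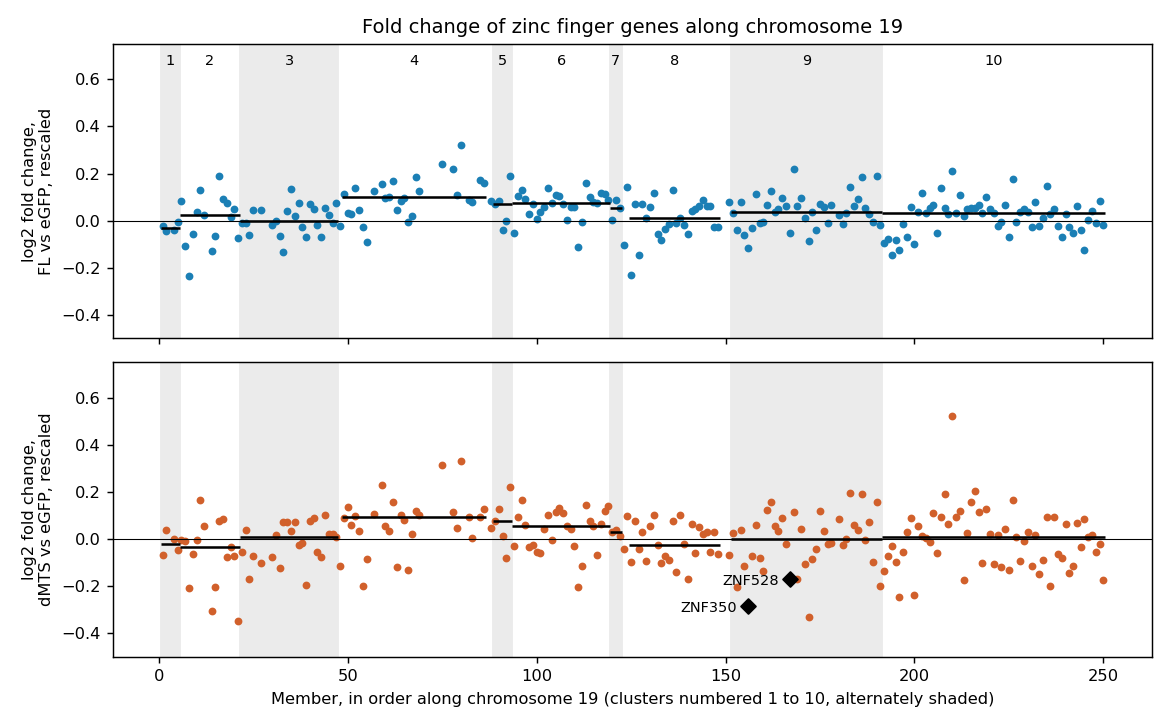
Rescaled log2 fold change (y axes) of the 230 tested members in their order along the chromosome (x axis), FL against eGFP above and dMTS against eGFP below. Bars are cluster medians, and diamonds are the 2 members that passed the test. The bar of cluster 4 is the highest in both panels, at 0.10 and 0.09.

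The second comparison asked the same of OGDHL without its mitochondrial targeting sequence. As deposited, 0 of 230 members passed in dMTS against eGFP, against 0.0658% of all genes, and 2 members had an unadjusted p under 0.05, against 10.5%. Rescaled, ZNF350 and ZNF528 passed, both lower in dMTS, against 4.49% of all genes in either direction, 2.84% lower and 1.65% higher. At an unadjusted p under 0.05 there were 32 members rescaled, 6 higher and 26 lower, which is 13.9% of those tested against 23.6% of all genes. Cluster 10 held 14 of the 32, out of 59 tested members, and cluster 9 held 7, out of 39. The median log2 fold change was 0.07, the same as over all genes, and rescaled 0.02 against 0.01. As deposited it ran from -0.06 without dMTS replicate 2, over 0.00 without eGFP replicate 3 and 0.13 without eGFP replicate 1, to 0.14 without dMTS replicate 1. Groups did not overlap in 6 members as deposited, 2 higher (5.61% of all genes) and 4 lower (7.35%), against 13% of all genes in either direction. Rescaled there were 20 higher (13.6% of all genes) and 28 lower (14.8%), or 20.9% of members against 28.4%. The 2 rescaled calls depended on single libraries. None were made without any 1 of the 3 eGFP libraries, FL replicate 1, dMTS replicate 2 or dMTS replicate 3. In these settings 0.0487% to 1.26% of all genes were called. Without FL replicate 3 there was 1, against 2.40% of all genes, and without FL replicate 2 there were 2, against 3.05%. Without dMTS replicate 1 there were 12, of which 11 were lower, against 11.4% of all genes.

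ZNF350 encodes a KRAB repressor also known as ZBRK1 and lies in cluster 9. It was measured at 1.966, 1.807 and 1.574 TPM in eGFP, 1.576, 1.639 and 1.694 in FL and 1.379, 1.762 and 1.389 in dMTS. As deposited the groups overlapped, because dMTS replicate 2, the library with the high scale, lay among the eGFP values. Rescaled, the values were 1.875, 1.816 and 1.71 in eGFP, 1.605, 1.703 and 1.643 in FL and 1.489, 1.473 and 1.41 in dMTS, and the 3 groups did not overlap. The log2 fold change of dMTS against eGFP was -0.29 ± 0.05 (SE) rescaled, with a limma adjusted p of 0.0261, and -0.23 ± 0.12 as deposited, with 0.574. FL lay between, at -0.12 ± 0.05 rescaled (adjusted p of 0.588).

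ZNF528, another KRAB gene of cluster 9, was measured at 4.974, 4.669 and 4.271 TPM in eGFP, 4.539, 4.179 and 4.734 in FL and 3.767, 5.116 and 4.058 in dMTS. Rescaled, it was at 4.743, 4.692 and 4.639 in eGFP and 4.066, 4.278 and 4.12 in dMTS, with no overlap. The log2 fold change was -0.17 ± 0.04 rescaled, with a limma adjusted p of 0.0441, and -0.11 ± 0.12 as deposited, with 0.768.

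The promoter windows of the 2 members that passed are shown in full, 5′ to 3′ on the gene's strand from 250 bases before the start, with each CG dinucleotide in capitals.
ZNF350, chr19:51986791-51987090, - strand: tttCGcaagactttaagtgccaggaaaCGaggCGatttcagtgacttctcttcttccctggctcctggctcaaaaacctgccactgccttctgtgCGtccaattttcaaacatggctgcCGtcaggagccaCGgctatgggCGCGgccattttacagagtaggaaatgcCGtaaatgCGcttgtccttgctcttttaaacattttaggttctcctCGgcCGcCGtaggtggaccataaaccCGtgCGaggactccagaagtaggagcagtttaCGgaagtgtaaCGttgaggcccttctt
ZNF528, chr19:52397599-52397898, + strand: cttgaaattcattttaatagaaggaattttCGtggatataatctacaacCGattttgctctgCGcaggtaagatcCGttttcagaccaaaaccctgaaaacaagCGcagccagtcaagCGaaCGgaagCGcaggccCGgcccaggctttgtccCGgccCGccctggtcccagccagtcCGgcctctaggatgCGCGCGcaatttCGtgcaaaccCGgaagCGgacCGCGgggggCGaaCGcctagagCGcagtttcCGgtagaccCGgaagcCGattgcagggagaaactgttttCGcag
The ZNF350 window holds 17 CG dinucleotides and the ZNF528 window 27, around the median of 20 over all members. The exact ETS core CCGGAAGT was in neither. Near matches, such as CCGGAAGC in the ZNF528 window, were not counted in any window.

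Further members were called on estimated reads, which were scaled to a library's total of these reads and not to its total of TPM. limma-voom called 5 members in dMTS against eGFP, all lower (ZNF266, ZNF350, ZNF577, ZNF83 and ZNF846), against 7.42% of all genes, 5.51% lower. Rescaled it called 8, all lower, adding ZNF331, ZNF528 and ZNF814, against 9.11% of all genes, 5.85% lower. Of the genes that limma on log2 TPM did not call with all libraries, ZNF83, ZNF266, ZNF331 and ZNF846 were among the 12 it called rescaled without dMTS replicate 1. ZNF83, a gene of cluster 9, was at 2.626, 2.353 and 2.14 TPM in eGFP, 2.174, 2.221 and 2.313 in FL and 2.049, 2.044 and 1.75 in dMTS. Every dMTS value lay below every eGFP and FL value. The log2 fold change was -0.27 ± 0.11 as deposited and -0.33 ± 0.09 rescaled, with limma adjusted p of 0.408 and 0.079, and -0.35 by limma-voom, with 0.0228. The largest positive value was in ZNF460 of cluster 10, which was at 0.792, 0.6758 and 0.4815 TPM in eGFP and 0.7539, 1.333 and 0.9902 in dMTS. Its groups overlapped, and its log2 fold change of 0.58 ± 0.24 had a limma adjusted p of 0.436.

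**Figure D3:**
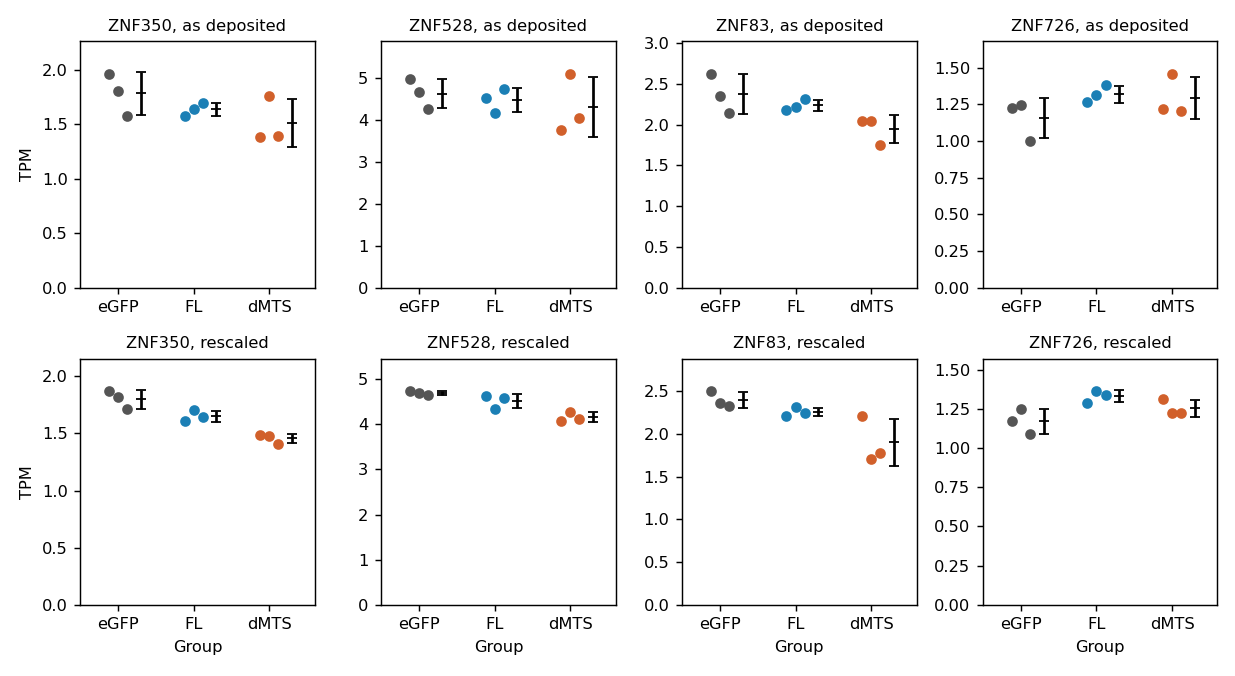
TPM (y axes, from 0) of ZNF350, ZNF528, ZNF83 and ZNF726 in the 9 libraries by group (x axes), as deposited in the upper row and rescaled in the lower. Points are libraries, and bars are the group mean and SD (n = 3). The dMTS values of ZNF350 lie below the other groups after rescaling and overlap them before it.

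The third comparison set the mistargeted against the full-length protein. No member passed in dMTS against FL as deposited or rescaled, against 0% and 0.00877% of all genes. At an unadjusted p under 0.05 there were 0 members as deposited, against 5.85% of all genes, and 15 rescaled, all lower in dMTS, against 13.3%. limma-voom, scaled to the total of estimated reads, called 0, against 0.0374% of all genes. Rescaled, limma-voom called 0, against 0.0581%. The median log2 fold change was 0.02 against 0.06 over all genes, and rescaled -0.03 against 0.01, with 77 of 230 above 0. As deposited it ran from -0.10 without dMTS replicate 2 and -0.02 without FL replicate 2 to 0.08 without FL replicate 3 and 0.11 without dMTS replicate 1. Groups did not overlap in 3 members as deposited, ZNF428 higher (4.7% of all genes) and ZNF83 and ZNF418 lower (5%), against 9.7% in either direction. Rescaled there were 3 higher (8.08% of all genes) and 27 lower (8.59%), or 13.0% of members against 16.7%. ZNF418 was at 2.017, 2.07 and 2.139 TPM in FL and 1.811, 1.979 and 1.683 in dMTS, a log2 fold change of -0.18 ± 0.10 with a limma adjusted p of 0.896. Without dMTS replicate 1, 5 members passed rescaled, all lower (ZNF121, ZNF266, ZNF331, ZNF418 and ZNF83), against 3.76% of all genes. The 2 comparisons with dMTS share the dMTS libraries, and those with eGFP share the eGFP libraries.

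Over the libraries, the rescaled median of the tested members was 0.03, -0.01 and -0.07 in eGFP, 0.02, -0.02 and 0.07 in FL and -0.02, 0.03 and -0.03 in dMTS. The groups overlapped, and FL replicate 3 and eGFP replicate 3 were the extremes. In the same 2 libraries the other protein-coding genes of chromosome 19 had medians of -0.05 and 0.09, of opposite sign to the members. ZNF genes of other chromosomes had medians of 0.05 and -0.03 there, of the same sign as the members. The pooled SD of the members' median within groups was 0.15 as deposited and 0.04 rescaled.

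**Figure D4:**
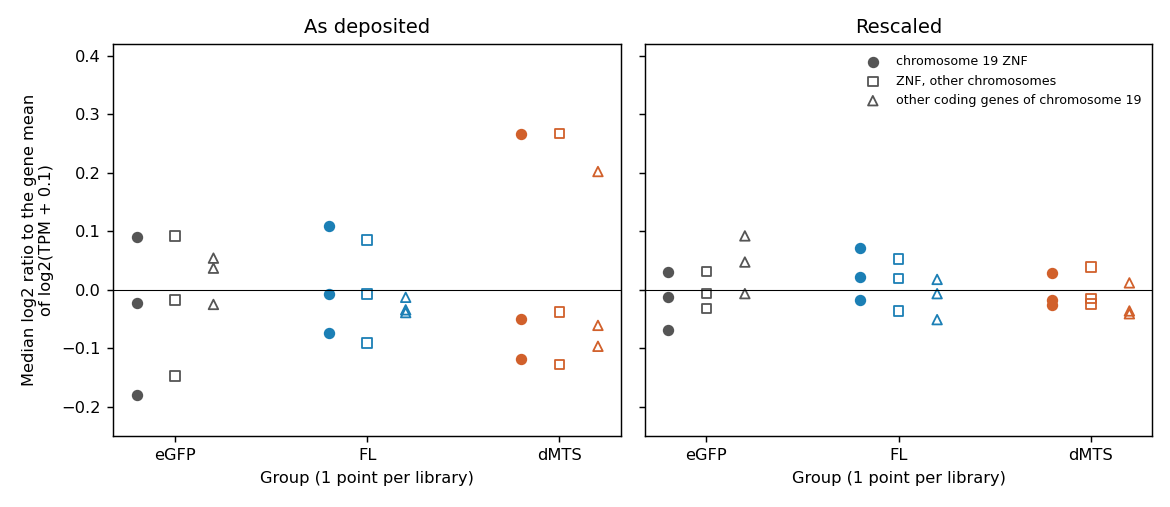
Median log2 ratio to the gene mean (y axes) of the tested members, of ZNF genes of other chromosomes and of the other coding genes of chromosome 19, by group (x axes, 1 point per library), as deposited on the left and rescaled on the right. The dMTS library at 0.27 on the left lies at 0.03 after rescaling.

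Besides ZNF350, a set of 16 members with described functions was looked at. None of the 16 passed limma on log2 TPM with all 9 libraries. Without dMTS replicate 1 rescaled, ZNF274, ZNF331 and ZNF444 passed in dMTS against eGFP, where 11.4% of all genes did. ZNF331 also passed in dMTS against FL in that setting, where 3.76% of all genes did. ZNF91, which represses SVA retrotransposons, had means of 1.88, 2.02 and 2.11 TPM in eGFP, FL and dMTS. ZNF93, which binds LINE-1 elements, was at 0.36, 0.375 and 0.388. ZNF274, which brings SETDB1 to the 3′ ends of zinc finger genes themselves, was at 3.787, 3.618 and 3.245 TPM in eGFP, 3.59, 3.387 and 3.492 in FL and 3.124, 3.828 and 3.087 in dMTS. The groups of ZNF274 overlapped as deposited, and its rescaled log2 fold change in dMTS against eGFP was -0.15 ± 0.04, with a limma adjusted p of 0.0928. The imprinted gene ZNF331 was at 1.856, 1.697 and 1.593 TPM in eGFP, 1.672, 1.665 and 1.751 in FL and 1.515, 1.788 and 1.357 in dMTS, and its rescaled change in dMTS was -0.20 ± 0.06, with 0.103. ZNF154, whose promoter is often methylated in tumours, was low in all libraries, between 0.127 and 0.23 TPM. ZNF671, reported to be silenced likewise in tumours, lay between 2.37 and 3.17 TPM. ZNF536, a neuronal gene, had 1.33 estimated reads per library on average, and no test was made. In bulk RNA, fewer cells expressing a gene and less RNA per cell cannot be told apart.

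The partners of KRAB proteins were taken as a list of 30 corepressor and heterochromatin genes, all of them tested. None passed as deposited in any of the 3 comparisons. Rescaled, 2 rose in dMTS against eGFP: CBX3, which encodes the heterochromatin protein HP1 gamma, by 0.19 ± 0.03 with a limma adjusted p of 0.0206, and SUMO2, a small modifier conjugated to TRIM28, by 0.17 ± 0.04 with 0.0453. That is 6.67% of the list, against 4.49% of all genes called and 1.65% called higher. Of the 12387 protein-coding genes tested, 288 were called higher and 481 lower. Over all genes the rescaled calls fell from 1024 to 11 without eGFP replicate 2 and to 10 with a replicate block. The calls of CBX3 and SUMO2 were not followed in those settings. TRIM28 itself stood at 120 ± 5.03 TPM in eGFP, 119 ± 2.03 in FL and 122 ± 13.5 in dMTS (SD, n = 3), with limma adjusted p of 1 and 0.927 against eGFP. SETDB1 stood at 5.599 ± 0.436, 5.63 ± 0.193 and 5.72 ± 0.908. The list's median log2 fold change was 0.04 in FL and 0.09 in dMTS against eGFP, and 0.03 in both rescaled. Over all genes it was 0.01 and 0.07, and rescaled 0.00 and 0.01.

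Many members resemble one another in sequence, and how reads that fit several genes were counted is not given in the sources used here. At 200 to 1000 estimated reads only 21.1% to 38.0% of the members' values were whole numbers, within 0.01 read, against 54.8% to 58.8% for all protein-coding genes and 45.9% to 66.1% for ZNF genes elsewhere. In addition, 92 members overlap another gene on the same strand and 121 on the opposite one. The symbol ZNF724 belongs to 2 gene identifiers, and 3 members are readthrough genes. Whether similar copies or overlapping genes account for the fractional values was not tested, and differences between single members are uncertain to that extent.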

How the data were processed

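The 9 libraries were mRNA-enriched, stranded and randomly primed, and sequenced in paired reads of 50 bases, per the labels' protocols. Per the submitters' processing notes the aligner was STAR and the build GRCh38. The counting tool, the annotation and all versions were not given in the sources used here. The authors deposited TPM per gene, with lengths equal to the genomic span in 100% of rows. TPM times length gave estimated reads, of which 71.8% to 74.4% of values under 20 reads were whole within 0.01.

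Genes at 0.1 TPM or more in at least 3 libraries (22802) were tested with limma 3.58.1 in R 4.3.3 on log2(TPM + 0.1), with a trended variance, all 9 libraries and Benjamini-Hochberg adjustment, two-sided. Rescaled values set each library's median log2 ratio to 0. Exons and coding sequences came from GENCODE 29, and promoters from RefSeq (GRCh38.p14). Of the genes shared with GENCODE 29, 70.1% had the same start there as in the deposited values. The exon lengths behind the exon RPKM may therefore differ from those of the authors' annotation. The test was also run on simulated data with independent noise, no shift of scale between libraries and changes larger than most seen here. That run does not show how shifts of scale bear on the calls. Named members were the highest by TPM overall and per cluster, those called, those without overlap between groups, and a fixed set with described roles. ZNF460 and members called only under an alternative, where the rule did not already name them, were named after their values were seen. The members and lists were chosen with earlier results of these data known. No protein sequences are printed.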

Additional observations from a re-analysis of the deposited data

How the results depend on the processing

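Counts of members called in FL against eGFP were 0 under every alternative run. Those in dMTS against FL were 0 except without dMTS replicate 1 rescaled (range 0 to 5 over the libraries left out). In that setting 3.76% of all genes were called. In dMTS against eGFP the count was 0 as deposited, also under pseudocounts of 0.02 and 1, a filter of 1 TPM, no filter, robust variance and the 6 libraries alone. It was 2 rescaled, against 4.49% of all genes, and 2 without OGDHL and mitochondrial genes (ZNF350 and ZNF446), against 3.35%. limma-voom called 5, against 7.42% of all genes, and rescaled 8, against 9.11%. Rescaled with each library left out, limma on log2 TPM called 0 to 12 members, against 0.0487% to 11.4% of all genes. ZNF350 was negative in all 31 alternatives and called in 7, and ZNF528 was negative in 31 and called in 3. A gap of 2 Mb gave 6 clusters. The fit with a replicate block called 0 members in each comparison, as deposited and rescaled. Same-numbered libraries did not deviate together (correlations of -0.194 to 0.048), so the numbers were not taken as pairs. The median fold changes stayed within 1 SD between libraries under all alternatives. As deposited that SD was 0.15, larger than the medians of 0.05, 0.07 and 0.02, so this does not show that they are stable. With single libraries left out as deposited, they ran from -0.03 to 0.12 in FL and from -0.06 to 0.14 in dMTS against eGFP. In dMTS against FL they ran from -0.10 to 0.11. The 20 untested members, 11 of them under 10 reads, were not compared.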
